A study of Carica papaya with 12 samples.

Results

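Ripening did not move the transcriptome of the 2 papaya varieties in the same way. The measure described here is the variety by stage interaction, that is, the log2 change from unripe to ripe flesh in variety 1B minus the same change in variety RB1. A positive interaction means that the ripe to unripe ratio of a transcript was higher in 1B, and a negative one that it was higher in RB1. All genes of the de novo assembly with enough reads entered the test: 36566 of the 75259 assembled genes, in 11 of the 12 RNA-Seq libraries. RB1 is a red-fleshed Australian commercial cultivar described by the submitters as sweet and floral, and 1B a yellow-fleshed one described as bitter and musty. Their paper also cites a sensory analysis in which the floral aroma was greater in 1B. The groups were unripe RB1 flesh (n = 3), ripe RB1 flesh (n = 2 of 3), unripe 1B flesh (n = 3) and ripe 1B flesh (n = 3), 1 fruit per library. All fruits came from the same plantation and were treated after harvest with the fungicide prochloraz. They were stored warm for a day and then moved by refrigerated truck to the laboratory, where the flesh was frozen. Unripe and ripe refer to the first and the third step of a harvest colour index, so neither stage is a fixed age of the fruit, and fruits of the 2 varieties in the same step need not be equally far through ripening.

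Papaya is a climacteric fruit: ripening starts with a burst of ethylene and respiration, and within a few days the cell wall is taken apart, sugars are released from sucrose and from cell walls, and volatile alcohols, esters and terpenes form. Sucrose reaching the flesh is split by sucrose synthase, which gives UDP-glucose and fructose, or by invertases, which give glucose and fructose. The hexoses enter glycolysis, whose end product pyruvate feeds acetyl-CoA, the precursor of fatty acids and of the mevalonate route to isoprenoids, as well as acetaldehyde and ethanol.

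The 11 libraries held between 10949150 (ripe RB1, replicate 2) and 60099931 (ripe 1B, replicate 2) counts. A single library, RB1 ripe replicate 3, was left out. The study removed 1 ripe RB1 replicate as an outlier without giving its number, and replicate 3 was taken to be that library here. Replicate 3 was compared with the mean of unripe RB1 and the mean of the other ripe RB1 libraries. It was nearer to the unripe mean in 86.8% of the 3753 genes called both in the interaction and in RB1. A fit without replicate 3 picked these genes, which can by itself place a left-out library toward the unripe side. The share is therefore no test of the exclusion. In the 39 called genes of the study's flavour list, picked by the same fit, replicate 3 was nearer to the unripe mean in 32. The values of replicate 3 are given beside part of the results. The libraries also differed by variety and stage in composition. The 10 most abundant genes held 45.9% to 48.4% of the counts in unripe 1B and 28.9% to 39.6% in the other libraries, and the scaling factors of the trimmed mean of M-values (TMM) method were 0.66 to 0.68 in unripe 1B and 1.29 to 1.44 in ripe 1B. After all libraries were thinned to the same total, 16148 to 16993 genes had at least 10 counts in ripe 1B, 12223 to 12274 in unripe 1B, 13548 to 14026 in unripe RB1 and 14214 to 14287 in ripe RB1. Unripe 1B also had the higher scores in the study's RNA quality report, whose part in the results was not tested.

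A gene was called when its adjusted p was below 0.05 and its log2 difference exceeded 1.5 in size, the thresholds the study used. By this rule 12144 genes, 33.2% of those tested, differed between the varieties in their change with ripening: 7378 in the positive direction (20.2%) and 4766 in the negative direction (13%). The change with ripening itself was called in 6016 genes in RB1 (16.5%), of which 3166 rose and 2850 fell, and in 9370 genes in 1B (25.6%), of which 6086 rose and 3284 fell. With RB1 ripe replicate 3 included, 3660 positive and 3597 negative interactions were called, and 6929 genes were called with the same sign in both fits. The ripening genes in RB1 then numbered 1780, of which 1202 rose and 578 fell, and without RB1 ripe replicate 1 they numbered 3935. The balance of the directions depended on the scaling: 60.8% of the calls were positive with TMM, 84.4% with library size alone and 40.5% once the median stage change of all genes was set to 0 in both varieties.

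**Figure D1:**
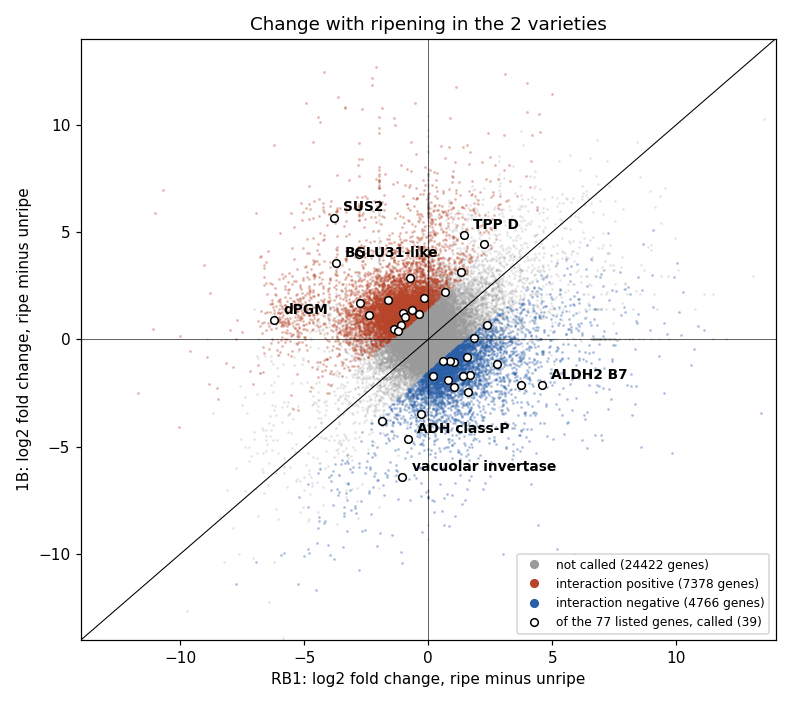
Change from unripe to ripe in RB1 (horizontal axis, log2) against the same change in 1B (vertical axis, log2) for the 36566 genes tested. Points above the diagonal in red are the 7378 positive calls, points below it in blue the 4766 negative calls, grey points were not called, and open circles are the 39 called genes among the 77 listed flavour-related genes, 7 of them named.

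The called genes were sorted by what each variety did on its own. In 83.8% of the called genes the fitted changes in RB1 and 1B had opposite signs, against 57.4% of all genes tested, and in 82.8% the sign of the difference between the varieties was not the same in unripe as in ripe fruit, against 56.6% of all genes tested. The difference between the varieties was larger in ripe than in unripe flesh in 69.7% of the called genes, against 63.3% of all genes tested. These shares describe genes that the interaction test itself picked out, and a large interaction favours opposite signs by its construction. Among the 7378 positive calls, 2826 also rose in 1B with no call in RB1, 1427 fell in RB1 with no call in 1B, and 477 did both. Among the 4766 negative calls, 1697 fell in 1B with no call in RB1, 1074 rose in RB1 with no call in 1B, and 462 did both. Calls with a shared direction were fewer: 91 positive calls rose in both varieties, 117 negative calls fell in both, 83 negative calls rose in both and 22 positive calls fell in both. The remaining 2535 positive and 1333 negative calls passed the threshold in neither variety alone. In 40.3% of the positive and 77.1% of the negative calls, a group of each variety had at least 10 counts in every library. Of the 2826 genes that rose in 1B with no call in RB1, 1942 did not meet this count rule. Of the 1697 genes that fell in 1B with no call in RB1, 370 did not meet it. How far few reads account for the missing calls was not tested.

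**Figure D2:**
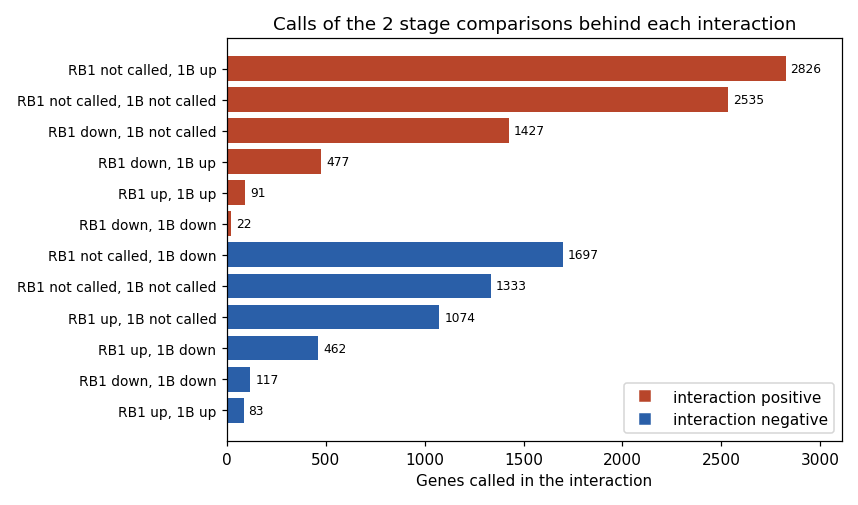
Number of genes called in the interaction (horizontal axis) by their calls in the RB1 and the 1B stage comparison, red for the 7378 positive and blue for the 4766 negative interactions. The longest bar is the 2826 genes that rose in 1B with no call in RB1, and genes called in the same direction in both varieties are few. Of these 2826 genes, 1942 did not have at least 10 counts in every library of a group of each variety.

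Across the 12767 genes with at least 10 counts in every one of the 11 libraries, the change with ripening in RB1 and that in 1B were only weakly related (Pearson's r = 0.06, Spearman's rho = -0.01). The points are genes of the same libraries and not independent replicates, so these coefficients carry no p-value. When only the 3429 of these genes called in at least 1 of the stage comparisons were taken, r was 0.15 and rho 0.17. Genes called with the same sign in both stage comparisons numbered 1379, of which 313 (22.7%) were also called in the interaction. A total of 939 genes were called with opposite signs in both, and all of them carry an interaction call because opposite changes past the threshold add up to more than it.

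The direction of the interaction followed the expression level. Levels are given throughout as CPM, counts scaled to a common library size with the TMM factors. Among the 22882 genes with a mean level under 1 CPM the median interaction was 1.12 and 81.0% of the 7277 calls were positive. Among the 6686 genes from 1 to 10 CPM the median was -0.26 and 42.1% of the 2682 calls were positive. At 10 CPM and more, in 6998 genes, the median was -0.75 and only 358 of the 2185 calls were positive (16.4%). In the stage comparisons, low-level genes had a median change of 0.71 in 1B and -0.39 in RB1, and genes at 10 CPM or more had -0.51 in 1B and 0.22 in RB1. Ripe 1B was also the group with the most genes detected at equal depth, whose part in this was not tested, and a gene of low level can enter the test through the single group in which it is highest. A rescaling moves all levels together, and with library size alone the median at 10 CPM or more was 0.06. The share of positive calls at that level also depended on the setting, with 51.9% for library size alone, 55.4% and 56.9% for limma on log2 TPM with pseudocounts of 1 and 0.1, 40.0% for genes with at least 10 counts in all 11 libraries and 27.6% after thinning to equal depth. The median of the low-level genes was above that of the high-level genes in all 26 alternatives with gene-level values, by 0.23 to 2.08. Several of these could not have come out otherwise. Dropping the fold threshold and testing against it keep the log2 values of the main fit, with its difference of 1.87. Changes of scaling shift all genes by nearly the same amount, which cancels in the difference.

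**Figure D3:**
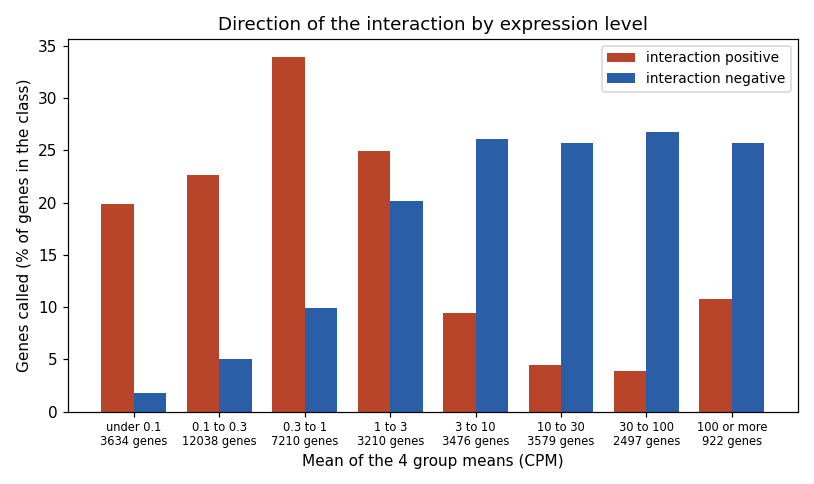
Share of genes called (vertical axis, percent of the genes in the class) with a positive (red) or negative (blue) interaction, by the mean of the 4 group means in CPM (horizontal axis). Positive calls are the more common below 3 CPM, with 34.0% of the genes from 0.3 to 1 CPM, and negative calls from 3 CPM upward, with 25.7% to 26.8% of the genes in each class; with library size alone 51.9% of the calls at 10 CPM or more were positive.

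Names were available for 77 assembled genes in the study's list of transcripts of sugar and volatile metabolism. The study had chosen that list for a difference between the varieties in these ripe fruits, so its members are no independent evidence for the size or direction of an interaction. Of the 77 genes, 39 were called (50.6%): 20 positive and 19 negative, beside 33.2% of all genes tested and, at mean levels of 10 CPM or more, 31.2%. By adjusted p alone 35 were positive and 30 negative, beside 50.2% of all genes tested. Their median interaction was 0.24, against 0.47 over all genes. In 29 of the 39 called genes the fitted changes had opposite signs in the 2 varieties, and in 25 of these 29 both changes had an adjusted p below 0.05. The unripe and ripe libraries did not overlap in 37 of the 39 called genes in RB1 and in 37 in 1B, beside 56.6% and 64.6% of all genes tested and 73.2% and 84% of all genes called in the interaction. With all 12 libraries 10 of the 20 positive and 17 of the 19 negative calls remained.

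**Figure D4:**
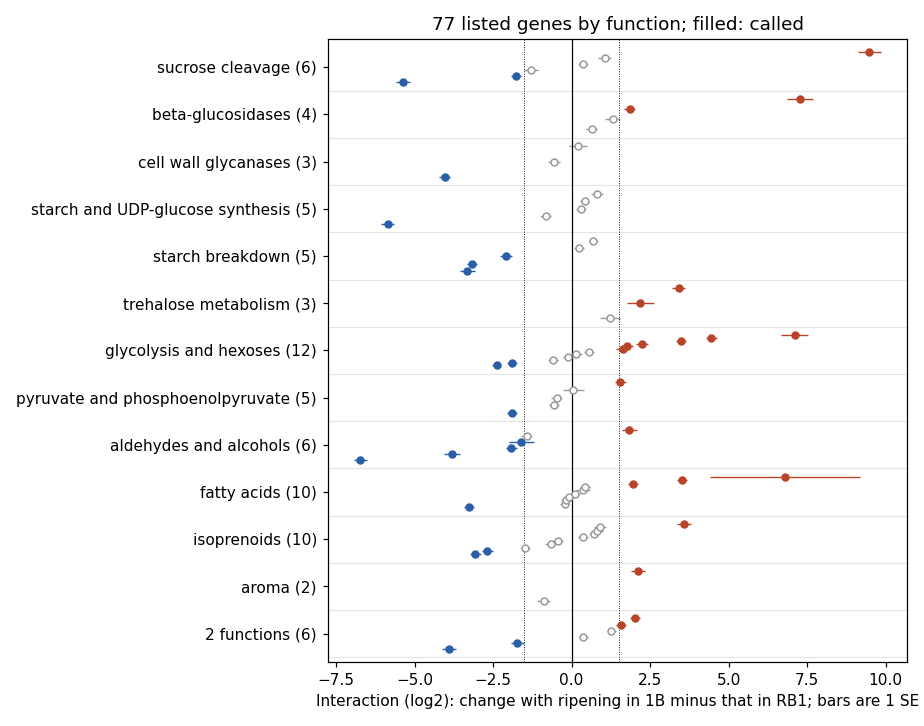
Interaction of each of the 77 listed genes (horizontal axis, log2 change with ripening in 1B minus that in RB1, bars 1 SE) by function, with the number of genes in parentheses. Filled red (20) and blue (19) points were called, open grey points (38) were not, dotted lines mark 1.5 in either direction, and the range runs from -6.72 to 9.48.

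Sucrose-cleaving enzymes split in both directions. The 6 listed genes gave 1 positive and 2 negative calls (50%, beside 33.2% of all genes tested). Sucrose synthase 2 (TRINITY_DN775_c0_g1) had the largest interaction of the list. Its level was 10.4, 10.3 and 11.95 CPM in unripe RB1, 0.841 and 0.597 CPM in ripe RB1, 0.0537, 0.0779 and 0.194 CPM in unripe 1B and 4.84, 4.83 and 7.22 CPM in ripe 1B. The transcript thus fell in RB1 and rose in 1B, without overlap between stages in either. The interaction was 9.48 ± 0.37 (SE) with an adjusted p of 4.5e-20, but unripe 1B rests on 2, 3 and 7 counts, which makes its size imprecise. The library left out, RB1 ripe replicate 3, stood at 17.3 CPM, above all other libraries, and with it the interaction was 6.42 (adjusted p = 0.0047).

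A second gene of the same assembly cluster, annotated as sucrose synthase (TRINITY_DN775_c0_g3, the SUS target of the study's RT-qPCR), went the other way. It measured 41.97, 42.2 and 51.8 CPM in unripe RB1 and 179 and 149 CPM in ripe RB1, against 44.2, 46.8 and 42.5 CPM in unripe 1B and 49.9, 51.2 and 40.8 CPM in ripe 1B. Only ripe RB1 stood apart from the other groups, which overlapped. The change was 1.85 in RB1 and 0.09 in 1B, an interaction of -1.77 ± 0.17 (adjusted p = 9.1e-11). RB1 ripe replicate 3, at 41.97 CPM, lay with the unripe libraries, and the call was lost with it (-1.40, adjusted p = 0.054). Keeping that library is 1 of 9 alternatives out of 26 in which the call was lost, the others being changes of filter, scaling, depth or test. Sucrose synthase 3-like (TRINITY_DN775_c0_g2) and sucrose synthase 5 (TRINITY_DN2092_c0_g1) were not called, with interactions of 0.36 and -1.30. The sequences of the 3 genes of this cluster were not compared here, and the quantifier may have divided shared reads among them.

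The vacuolar invertase (TRINITY_DN3457_c0_g1), which hydrolyses sucrose stored in the vacuole, nearly disappeared in ripe 1B. Its levels were 41.9, 49.6 and 47.9 CPM in unripe 1B and 0.672, 0.637 and 0.298 CPM in ripe 1B. In RB1 they were 26.2, 21.3 and 20.8 CPM unripe and 10.7 and 11.4 CPM ripe. Both varieties were lower when ripe, but by -6.41 in 1B and -1.04 in RB1 on the log2 scale, an interaction of -5.37 ± 0.22 (adjusted p = 1.9e-19). The insoluble, cell wall invertase (TRINITY_DN1273_c2_g1) showed no such call. It had 4866, 4758 and 4756 CPM in unripe and 1047 and 866 CPM in ripe RB1, and 9069, 9467 and 8498 CPM in unripe and 3468, 3559 and 4186 CPM in ripe 1B. Ripe was the lower stage in both varieties (-2.32 in RB1 and -1.27 in 1B), and the interaction of 1.06 ± 0.21 did not reach 1.5. With RB1 ripe replicate 3, at 4924 CPM, it was -0.21.

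**Figure D5:**
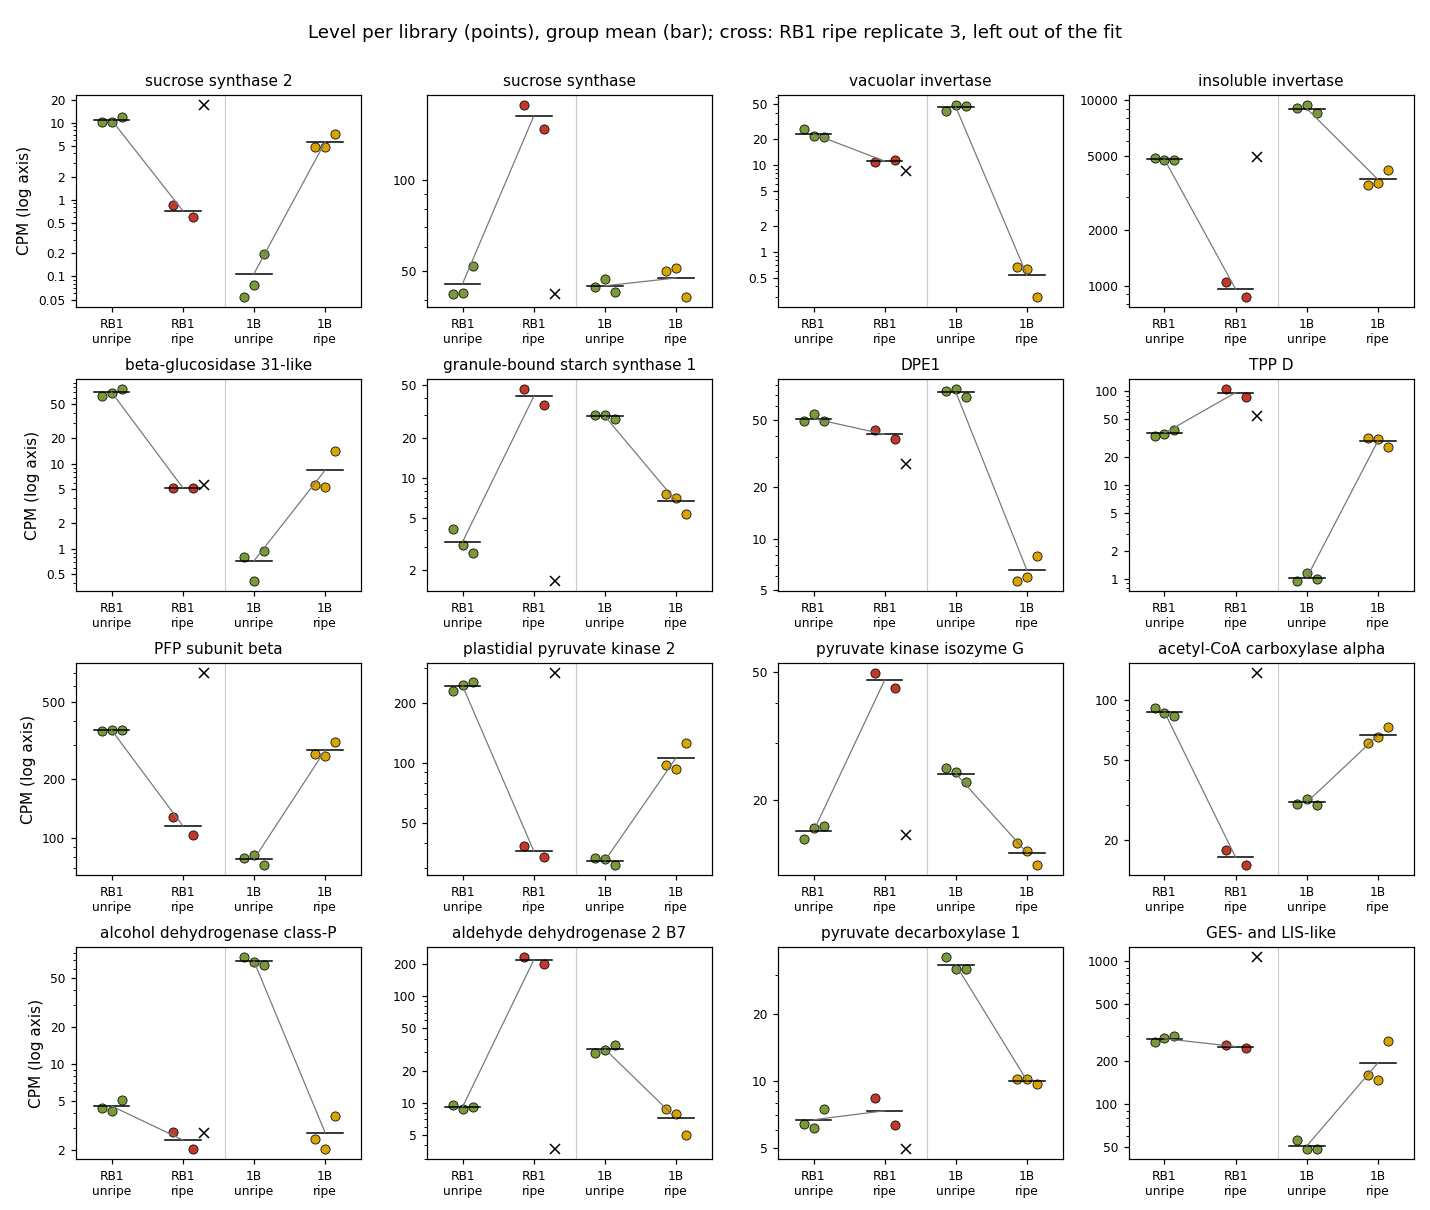
Level of 16 named genes in each library (points, CPM on a log axis that differs between panels) with the group mean as a bar and a line joining the unripe and ripe means of a variety. Crosses are RB1 ripe replicate 3, which was left out of the means; lines of opposite slope mark genes such as sucrose synthase 2, PFP subunit beta and aldehyde dehydrogenase 2 B7.

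Beta-glucosidases release glucose from glycosides, including the bound forms of aroma compounds. Of the 4 listed genes, 2 were called (50%, beside 33.2% of all genes tested), both positive. The interaction of the other 2 was also above 0. The beta-glucosidase 31-like gene (TRINITY_DN3009_c0_g1) measured 62.9, 68.8 and 76.6 CPM in unripe RB1 and 5.24 and 5.23 CPM in ripe RB1. In 1B it went from 0.805, 0.415 and 0.941 CPM to 5.599, 5.34 and 14.3 CPM. It fell in RB1 (-3.73) and rose in 1B (3.54), so that the varieties differed widely when unripe and lay much closer together when ripe. The interaction was 7.27 ± 0.41 (adjusted p = 4.1e-16), and RB1 ripe replicate 3, at 5.57 CPM, lay with the ripe RB1 libraries here. The beta-glucosidase 42-like gene (TRINITY_DN1938_c0_g1) had an interaction of 1.84 ± 0.17 (adjusted p = 3.3e-11), from a change of -1.38 in RB1 and 0.47 in 1B. That call was lost with the 12 libraries (1.25). The BoGH3B-like beta-glucosidase (TRINITY_DN3108_c0_g1) rose in both varieties, by 2.37 in RB1 and 3.68 in 1B, and its interaction of 1.31 ± 0.24 stayed under 1.5, while it was called in 9 of 26 alternatives, 1 of which had no fold threshold.

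Among the cell wall glycanases 1 of 3 was called, beside 33.2% of all genes tested. The endoglucanase 25-like gene (TRINITY_DN2388_c0_g1), a membrane-bound enzyme of cellulose synthesis in Arabidopsis, rose in RB1 from 26.99, 28.01 and 27.6 CPM to 92.7 and 73.6 CPM. In 1B it fell from 36.1, 35.5 and 28.3 CPM to 6.49, 6.42 and 5.49 CPM. The unripe levels lay close together and the ripe ones were far apart, with an interaction of -4.04 ± 0.17 (adjusted p = 1.8e-19). RB1 ripe replicate 3, at 8.82 CPM, did not share the rise, and with it the interaction was -3.57 (adjusted p = 0.0037).

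Among the starch enzymes the calls were negative, but the values went both ways, with 5 of 10 genes above 0. In starch and UDP-glucose synthesis 1 of 5 genes was called, and in starch breakdown 3 of 5, beside 33.2% of all genes tested. Granule-bound starch synthase 1 (TRINITY_DN5853_c0_g2), the enzyme that makes amylose, was at 4.07, 3.09 and 2.68 CPM in unripe RB1 and 47.2 and 35.3 CPM in ripe RB1. In 1B it was at 29.9, 30.1 and 27.7 CPM when unripe and 7.58, 7.09 and 5.36 CPM when ripe. It therefore rose in RB1 (3.72) and fell in 1B (-2.13), and the interaction was -5.85 ± 0.20 (adjusted p = 1.9e-21). At 1.65 CPM, RB1 ripe replicate 3 was below the unripe RB1 libraries.

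The plastid glucanotransferase DPE1 (TRINITY_DN260_c0_g1), which works on the maltotriose left by starch degradation in Arabidopsis leaves, changed in 1B. Its levels there were 73.2, 75.8 and 68.1 CPM in unripe and 5.62, 5.98 and 7.94 CPM in ripe fruit, a log2 change of -3.48. RB1 had 49.1, 53.8 and 49.01 CPM in unripe and 43.6 and 38.2 CPM in ripe fruit, a change of -0.30 (adjusted p = 0.055). The interaction was -3.17 ± 0.17 (adjusted p = 9.1e-17). Isoamylase 3 (TRINITY_DN5599_c0_g1), a debranching enzyme of starch breakdown, rose in RB1 (1.69) and fell in 1B (-1.64, interaction -3.33 ± 0.24). RB1 ripe replicate 3, at 1.13 CPM, lay with the unripe RB1 libraries. The gene annotated as beta-amylase 7 (TRINITY_DN6052_c0_g1) had an interaction of -2.09 ± 0.19 from a change of 1.03 in RB1 and -1.07 in 1B. Alpha-glucan phosphorylase and alpha-amylase 3 were not called.

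All 3 genes of trehalose metabolism had a positive interaction and 2 were called (66.7%, beside 33.2% of all genes tested). Trehalose 6-phosphate, made by the synthase and removed by the phosphatases, is a signal of sucrose supply in plants. Trehalose-phosphate phosphatase D (TRINITY_DN2555_c0_g1) was at 0.9396, 1.14 and 0.996 CPM in unripe and 31.9, 31.1 and 25.6 CPM in ripe 1B. In RB1 it was at 33.1, 35.4 and 38.8 CPM in unripe and 106 and 87.0 CPM in ripe fruit. The ripe stage was thus higher in both varieties, but by 4.84 in 1B and 1.44 in RB1, and ripe RB1 remained above ripe 1B. Its interaction was 3.40 ± 0.20 (adjusted p = 8.2e-16). The trehalose-phosphate synthase 1-like gene (TRINITY_DN4138_c2_g1) rose in both varieties as well, by 2.26 in RB1 and 4.44 in 1B, from levels of 0.18 to 0.44 CPM in all unripe libraries (interaction 2.18 ± 0.43, adjusted p = 7.7e-05). RB1 ripe replicate 3, at 0.17 CPM, did not share the rise.

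Glycolysis, the group with the most genes, had 6 positive and 2 negative calls among 12 genes (66.7%, beside 33.2% of all genes tested). The beta subunit of pyrophosphate-fructose 6-phosphate 1-phosphotransferase (PFP, TRINITY_DN2802_c0_g1), which phosphorylates fructose 6-phosphate reversibly with pyrophosphate in place of ATP, reversed its order between the varieties. Unripe RB1 had 354, 359.9 and 358 CPM and ripe RB1 128 and 103 CPM, whereas unripe 1B had 79.1, 81.7 and 72.4 CPM and ripe 1B 269, 264 and 312 CPM. It fell in RB1 (-1.63) and rose in 1B (1.86), an interaction of 3.48 ± 0.17 (adjusted p = 1.8e-17). RB1 ripe replicate 3 was at 704 CPM, the highest of all libraries, and with it the interaction was 2.04 (adjusted p = 0.046). For SUS, BGH3B, GES and LIS the study's RT-qPCR reported higher expression in ripe RB1, and the ripe order of their genes here was the same. The ripe difference (log2, 1B minus RB1) was -1.79 for sucrose synthase and -0.58 for the BoGH3B-like gene. It was -0.38 for the gene that holds GES and LIS. PFP was also a target of the study's RT-qPCR, which reported higher expression in ripe RB1 than in ripe 1B. That is the opposite of the ripe order in the 11 libraries. The samples and the measure were not the same, however. The RT-qPCR drew on each ripe sample, and the study does not say that the outlier was left out of it. The study's list holds a single transcript of this gene, while 9 transcripts were summed here. For this gene the study described its own RNA-Seq and RT-qPCR results as concordant. The cause of the difference was not tested.

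Plastidial pyruvate kinase 2 (TRINITY_DN1288_c0_g1), which makes pyruvate from phosphoenolpyruvate inside the plastid, had the same shape. It measured 231, 247 and 254 CPM in unripe RB1, 38.7 and 34.1 CPM in ripe RB1, 33.7, 33.03 and 30.8 CPM in unripe 1B and 98.3, 93.98 and 127 CPM in ripe 1B. Ripe RB1 and unripe 1B lay close together, and both were well below unripe RB1. The interaction was 4.45 ± 0.18 (adjusted p = 1.0e-19) and 2.73 with RB1 ripe replicate 3, which stood at 284 CPM. The other pyruvate kinases diverged. Isozyme A (TRINITY_DN5471_c0_g1) was positive (2.23 ± 0.19; 1.18 and no longer called with the 12 libraries). Isozyme G (TRINITY_DN6161_c0_g1) was negative (-2.39 ± 0.15, adjusted p = 6.1e-15), with 15.1, 16.3 and 16.5 CPM in unripe and 49.8 and 44.7 CPM in ripe RB1. In 1B isozyme G was at 25.1, 24.5 and 22.8 CPM when unripe and 14.7, 13.8 and 12.5 CPM when ripe. RB1 ripe replicate 3, at 15.5 CPM for isozyme G, lay with the unripe RB1 libraries. The cytosolic pyruvate kinase 1-like gene was not called.

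The 2,3-bisphosphoglycerate-dependent phosphoglycerate mutase (TRINITY_DN2089_c0_g2) was all but lost from the ripe RB1 libraries used. It stood at 22.5, 19.6 and 19.1 CPM in unripe RB1 and 0.2402 and 0.373 CPM in ripe RB1, the latter from 12 and 5 counts. In 1B it was present in both stages, with 11.1, 7.297 and 6.23 CPM unripe and 19.8, 8.96 and 16.6 CPM ripe. The interaction was 7.10 ± 0.43 (adjusted p = 2.8e-15), but RB1 ripe replicate 3 had 32.7 CPM and with it nothing was called (1.71, adjusted p = 0.4). The remaining 3 called glycolytic genes, named here after their values were seen, were the positive 6-phosphofructokinase 6-like and phosphoglycerate kinase-like genes (1.77 and 1.63) and the negative cofactor-independent phosphoglycerate mutase (-1.90).

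Enzymes that turn pyruvate into ethanol and oxidise aldehydes were mostly on the negative side. Of the 6 genes of aldehydes and alcohols, 4 were called negative and 1 positive, beside 13% and 20.2% of all genes tested. Pyruvate decarboxylase 1 was negative as well. With TMM only 16.4% of all calls at 10 CPM or more were positive, so negative calls were the more common at that level in any case. Aldehyde dehydrogenase 2 B7 (TRINITY_DN1920_c0_g1), a mitochondrial enzyme that oxidises acetaldehyde to acetate, had the lowest interaction of the list. Unripe RB1 had 9.601, 8.83 and 9.07 CPM and ripe RB1 233 and 201 CPM, while unripe 1B had 29.4, 31.2 and 35.0 CPM and ripe 1B 8.72, 7.84 and 4.95 CPM. It rose in RB1 (4.57) and fell in 1B (-2.15), an interaction of -6.72 ± 0.21 (adjusted p = 9.7e-23). The rise was not shared by RB1 ripe replicate 3, at 3.66 CPM.

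Alcohol dehydrogenase class-P (TRINITY_DN1848_c0_g1), which interconverts acetaldehyde and ethanol, passed the threshold for a fall in 1B (-4.65) and not in RB1 (-0.83). Unripe 1B had 74.8, 67.4 and 64.7 CPM, and every other group was low: 2.47, 2.05 and 3.79 CPM in ripe 1B, 4.37, 4.17 and 5.11 CPM in unripe RB1 and 2.802 and 2.02 CPM in ripe RB1. The interaction was -3.81 ± 0.26 (adjusted p = 4.3e-14). Pyruvate decarboxylase 1 (TRINITY_DN81_c0_g1), the step before it, had the same pattern with 36.03, 31.9 and 31.7 CPM in unripe 1B and 6.18 to 10.2 CPM in all other libraries used (interaction -1.90 ± 0.17). Aldehyde dehydrogenase 3 H1 (TRINITY_DN2110_c2_g1) fell in both varieties, with -1.87 in RB1 and -3.79 in 1B (interaction -1.92 ± 0.17). Outside the rule for named genes, aldehyde dehydrogenase 3 F1 was negative (-1.61), and the aldo-keto reductase (1.84) and pyruvate, phosphate dikinase (1.54) were positive.

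In fatty acid metabolism 3 of 10 genes were called positive and 1 negative (40%, beside 33.2% of all genes tested). Plastid acetyl-CoA carboxylase makes malonyl-CoA, the first committed step of fatty acid synthesis. The gene of its carboxyl transferase subunit alpha (TRINITY_DN578_c0_g1) had 91.9, 86.4 and 83.96 CPM in unripe and 17.7 and 14.9 CPM in ripe RB1, against 30.3, 32.1 and 30.02 CPM in unripe and 61.03, 65.7 and 73.6 CPM in ripe 1B. It fell in RB1 (-2.40), changed by 1.12 in 1B, and had an interaction of 3.52 ± 0.16 (adjusted p = 3.0e-18). The biotin carboxyl carrier protein 1 of the same complex (TRINITY_DN10296_c0_g1) was also positive, at 1.95 ± 0.16. Both calls were lost with RB1 ripe replicate 3, which had the highest level of all libraries in both genes (138 and 43.1 CPM), leaving interactions of 1.72 and 1.38. A second subunit alpha gene, annotated as alpha-like, was not called.

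Long chain acyl-CoA synthetase 2 (TRINITY_DN1831_c0_g1), which activates fatty acids for cutin in Arabidopsis, was the negative member. Its levels were 119, 119.7 and 122 CPM in unripe and 279 and 220.4 CPM in ripe RB1, 415, 354 and 363 CPM in unripe and 79.3, 76.6 and 87.9 CPM in ripe 1B. It fell in 1B (-2.21) while RB1 changed by 1.05, an interaction of -3.27 ± 0.17 (adjusted p = 2.9e-17). The palmitoyl-protein thioesterase 1-like gene (TRINITY_DN7518_c0_g1) was called on few reads: 0, 2 and 0 counts in unripe RB1, 0 and 0 in ripe RB1, 2, 2 and 5 in unripe 1B, and 92, 110 and 107 in ripe 1B. It was detected well in ripe 1B alone, no fold change is given for RB1. The adjusted p was 0.018, and the call was lost in 5 of 24 alternatives.

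Isoprenoid genes gave 1 positive and 2 negative calls out of 10 (30%, beside 33.2% of all genes tested). Acetyl-CoA acetyltransferase 2 (TRINITY_DN5472_c0_g1), the entry to the mevalonate route, and diphosphomevalonate decarboxylase MVD2 (TRINITY_DN12097_c0_g1), a later step of the same route, were both negative, at -3.07 ± 0.18 and -2.68 ± 0.17. The acetyltransferase was at 4.78, 4.93 and 5.69 CPM in unripe and 13.4 and 13.7 CPM in ripe RB1. In 1B it was at 9.53, 9.35 and 9.57 CPM in unripe and 3.32, 2.54 and 2.99 CPM in ripe fruit. RB1 ripe replicate 3, at 4.79 CPM for this gene, lay with the unripe RB1 libraries. Farnesylcysteine lyase (TRINITY_DN4683_c0_g1), which breaks down prenylated cysteine, was the positive one (3.58 ± 0.22). The plastid methylerythritol phosphate route had no call. Acetyl-CoA acetyltransferase 1-like and farnesyl pyrophosphate synthase 1 rose in both varieties, the former by 1.67 in RB1 and 2.37 in 1B, and neither was called in the interaction. For acetyl-CoA acetyltransferase 1-like, RB1 ripe replicate 3 was at 90.7 CPM, below the unripe RB1 libraries.

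Of the 2 aroma genes, the geranyllinalool and linalool synthase-like gene (TRINITY_DN2620_c0_g1) was positive. This assembled gene holds the transcripts of the study's GES and LIS targets, terpene synthases that form floral volatiles. The sum over its transcripts, used here, does not tell the 2 apart. It was at 55.9, 48.3 and 48.8 CPM in unripe and 160.4, 147 and 277 CPM in ripe 1B, against 272, 292 and 298 CPM in unripe and 259 and 248 CPM in ripe RB1. It rose in 1B by 1.93 and changed by -0.18 in RB1 (adjusted p = 0.41), an interaction of 2.12 ± 0.23 (adjusted p = 1.7e-09). RB1 ripe replicate 3 had 1076 CPM, far above all other libraries, and the call was lost with it (1.04, adjusted p = 0.22). The benzyl alcohol O-benzoyltransferase-like gene (TRINITY_DN4842_c0_g1), of the family that forms benzoate esters, was not called (-0.88 ± 0.20).

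Another 6 listed genes carry annotations of more than 1 function, and 4 were called (66.7%, beside 33.2% of all genes tested). The gene with matches to both the acyl-CoA dehydratase PASTICCINO 2B and a GDP dissociation inhibitor (TRINITY_DN7525_c0_g1) was negative (-3.90 ± 0.22), and a leucine-tRNA ligase gene filed under phosphoglycerate kinase (TRINITY_DN1228_c0_g1) positive (2.02 ± 0.16; 1.37 with the 12 libraries). The other 2 were the positive VOZ2-like gene (1.59) and the negative glycolipid transfer protein 3 (-1.73), named after their values were seen.

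Ripening that was shared by the varieties is the counterpart of these calls. Of the 38 listed genes without an interaction call, 3-ketoacyl-CoA thiolase 2 (TRINITY_DN1817_c0_g1) of fatty acid beta-oxidation fell in RB1 (-1.94) and in 1B (-2.01), as did the cell wall mannanase 7 (TRINITY_DN4654_c1_g1, -2.59 and -2.39). Their interactions were -0.07 ± 0.19 and 0.20 ± 0.30. RB1 ripe replicate 3 was at 848 CPM for the thiolase and 2.79 CPM for the mannanase, in both nearer to the unripe than to the ripe RB1 mean. These examples were chosen after their values were seen, and a missing call does not show that the varieties changed alike.

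Outside the list the deposited tables give no gene names. The largest interactions among called genes with at least 10 counts in every library used were 10.97 and 10.40 in the positive and -9.88 and -9.58 in the negative direction. TRINITY_DN859_c0_g2 went from 544, 553 and 615 CPM in unripe to 1.34 and 1.12 CPM in ripe RB1 and from 15.9, 20.9 and 20.4 to 42.8, 41.1 and 174 CPM in 1B. TRINITY_DN321_c0_g1 went from 839.5, 853 and 963 to 32.97 and 29.9 CPM in RB1 and from 9.83, 9.58 and 9.63 to 393, 357 and 655 CPM in 1B. Both fell in RB1 and rose in 1B. TRINITY_DN3534_c0_g1 went from 1.21, 1.395 and 1.92 to 78.9 and 60.2 CPM in RB1 and from 362, 339 and 316 to 16.7, 16.3 and 15.1 CPM in 1B. TRINITY_DN6835_c0_g1 went from 0.905, 0.406 and 0.652 to 104 and 80.5 CPM in RB1 and from 17.9, 13.2 and 12.4 to 3.09, 3.18 and 2.58 CPM in 1B. These rose in RB1 and fell in 1B, and all 4 were called in both stage comparisons with opposite signs. In RB1 ripe replicate 3 the first 2 stood at 503 and 2036 CPM and the last 2 at 1.16 and 0.278 CPM, on the unripe side of the change in all 4, and the first was not called with the 12 libraries (3.93, adjusted p = 0.15), while the second was, at 5.93.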

How the data were processed

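RNA from the flesh of 3 fruits per variety and stage was sequenced on an Illumina NovaSeq. Per the labels and the study's methods, the authors trimmed reads with bbduk and Trimmomatic (0.40), checked them with FastQC (0.11.9), assembled 180368 transcripts with Trinity and quantified them with Salmon; they deposited a matrix of estimated counts per transcript and a matrix of TMM-scaled TPM signal values, which was used here only as an alternative. A de novo assembly can split 1 gene into several or join neighbours, and the assembly held reads of both varieties.

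The estimated counts were summed per Trinity gene (75259 genes) and rounded to whole numbers. Genes passing filterByExpr (36566) were scaled by TMM and tested with edgeR (4.0.16, R 4.3.3) quasi-likelihood F-tests in a model of the 4 groups without other terms, and p-values were adjusted by the Benjamini-Hochberg method over all genes tested. The standard error (SE) is the size of the log2 value divided by the square root of F. RB1 ripe replicate 3 was left out of the fit. Alternatives used DESeq2 (1.42.0) and limma (3.58.1) on log2(TPM + 1) and log2(TPM + 0.1). The scripts were tested on simulated data, and figures were drawn with matplotlib (3.10.9) in Python (3.11.15).

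The members, gene lists and tests were chosen with earlier results of these data known. Names come from the study's list of sugar and volatile transcripts, grouped by function into 77 genes; 37 of the 81 locus symbols behind them are in the RefSeq gene table of papaya used here. The text names every listed gene called in the interaction, up to the 15 largest in each direction, the RT-qPCR and sucrose-cleaving genes whether called or not, and the 2 largest interactions in each direction among genes without a name that have at least 10 counts in every library used; the genes named outside this rule are marked as such. No genome coordinates or sequences were used, and the labelled tissue was not checked against marker genes here, because the tables hold identifiers without names. The SE is the uncertainty of a fitted contrast and not the spread between fruits, and ripe RB1 entered the fit with 2 libraries. It does not cover RB1 ripe replicate 3, which moved some values by far more. The cofactor-dependent phosphoglycerate mutase, for example, went from 7.10 to 1.71 with that library.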

Additional observations from a re-analysis of the deposited data

Results flagged for a closer look

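Each gene named here differed between the 2 varieties in its change with ripening by the test of the interaction itself (log2, 1B minus RB1). Positive in sugar and glycolysis genes were sucrose synthase 2 (9.48), the beta-glucosidase 31-like (7.27) and 42-like (1.84) genes, the cofactor-dependent phosphoglycerate mutase (7.10), plastidial pyruvate kinase 2 (4.45), pyruvate kinase isozyme A (2.23), PFP subunit beta (3.48), trehalose-phosphate phosphatase D (3.40) and the trehalose-phosphate synthase 1-like gene (2.18). Positive in the other groups were farnesylcysteine lyase (3.58), acetyl-CoA carboxylase subunit alpha (3.52), biotin carboxyl carrier protein 1 (1.95), the geranyllinalool and linalool synthase-like gene (2.12) and the leucine-tRNA ligase gene (2.02). The fitted value of the palmitoyl-protein thioesterase 1-like gene (6.80) is no measure of size, because RB1 had at most 2 counts in any library of the fit.

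Negative in the sugar and starch genes were granule-bound starch synthase 1 (-5.85), vacuolar invertase (-5.37), the endoglucanase 25-like gene (-4.04), isoamylase 3 (-3.33), DPE1 (-3.17), pyruvate kinase isozyme G (-2.39), beta-amylase 7 (-2.09) and sucrose synthase (-1.77). Negative in the other groups were aldehyde dehydrogenases 2 B7 (-6.72) and 3 H1 (-1.92), alcohol dehydrogenase class-P (-3.81), pyruvate decarboxylase 1 (-1.90), long chain acyl-CoA synthetase 2 (-3.27), acetyl-CoA acetyltransferase 2 (-3.07), MVD2 (-2.68) and the PASTICCINO 2B-like gene (-3.90). The 4 genes without a name had interactions of 10.97 (TRINITY_DN859_c0_g2), 10.40 (TRINITY_DN321_c0_g1), -9.58 (TRINITY_DN6835_c0_g1) and -9.88 (TRINITY_DN3534_c0_g1).

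RB1 ripe replicate 3, a library outside the comparisons, held the highest level of all 12 libraries in 11 of the 40 named genes. These were the geranyllinalool and linalool synthase-like gene (1076 CPM), PFP subunit beta (704 CPM), plastidial pyruvate kinase 2 (284 CPM), acetyl-CoA carboxylase subunit alpha (138 CPM), the leucine-tRNA ligase gene (128 CPM), sucrose synthase 3-like (128 CPM), biotin carboxyl carrier protein 1 (43.1 CPM), the cofactor-dependent phosphoglycerate mutase (32.7 CPM), pyruvate kinase isozyme A (24.2 CPM), sucrose synthase 2 (17.3 CPM) and TRINITY_DN321_c0_g1 (2036 CPM). In all of them but sucrose synthase 3-like the interaction was called and positive. No control sample exists against which this library could be set.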

How the results depend on the processing

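The number of calls depended on the filter, the scaling and the library left out, and the cause of these shifts was not tested beyond what each alternative changes by its construction. Against 7378 positive and 4766 negative interactions, 9370 ripening genes in 1B and 6016 in RB1, the counts that moved by more than 1.5 times were as follows. With RB1 ripe replicate 3 kept there were 3660 positive interactions and 1780 ripening genes in RB1. Stricter filters test fewer genes: at least 1 CPM in 2 libraries gave 3774 positive, 2768 negative, 4528 in 1B and 3082 in RB1. Genes measured in both varieties gave 3768, 2789, 4083 and 3044 in the same order. At least 10 counts in all 11 libraries, an alternative added after seeing the data, gave 1883, 1712, 2405 and 1408. Thinning to equal depth gave 3614, 2722, 4878 and 3232. Scaling by library size alone gave 13492 positive, 2491 negative and 17401 in 1B, scaling to a median of 0 gave 4685 positive, and DESeq2 4862 positive. Limma on log2(TPM + 1) gave 2165, 1143, 1857 and 1227, and with a pseudocount of 0.1 gave 12418 positive and 2439 negative. No fold threshold gave 8705 negative, 20802 in 1B and 14059 in RB1, a test against the fold threshold (glmTreat) 2616, 3027, 4271 and 2361, and transcripts in place of genes 4875 positive.

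Leaving out 1 library at a time gave 5386 to 7265 positive and 3631 to 5245 negative interactions, 8497 to 10262 ripening genes in 1B and 3935 to 6022 in RB1. The lowest RB1 count came without RB1 ripe replicate 1, when the single remaining ripe RB1 library is assumed to vary like the others. Of the 35 named and called genes none changed sign in an alternative that gave it a value (transcripts in place of genes gave none per gene, and strict filters removed 4 of the genes), and 866 of 905 gene and alternative pairs kept the call. Of the 39 that did not, 9 were due to RB1 ripe replicate 3, and the RT-qPCR sucrose synthase alone accounted for 9. The alternative without a fold threshold reuses the main fit, so every call is kept there by construction. Most of the genes were also picked for the size of their interaction, so the share of kept calls does not describe called genes in general. Scaling by library size and limma with either pseudocount also ended the calls of beta-amylase 7, aldehyde dehydrogenase 3 H1 and pyruvate decarboxylase 1, the last 2 also with at least 10 counts in all 11 libraries. Limma on log2(TPM + 1) ended those of acetyl-CoA acetyltransferase 2, MVD2 and pyruvate kinase isozyme G, glmTreat that of the trehalose-phosphate synthase 1-like gene, and a median of 0 those of the beta-glucosidase 42-like gene and biotin carboxyl carrier protein 1.

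The labels number the fruits 1 to 3 in each group but do not say that a number marks a shared plant or day. Same-numbered libraries deviated from their group means with correlations of -0.27 to 0.11, over 0.1 in 2 of 15 pairs. Deviations from the mean of so few libraries cancel within each group, so these values cannot decide whether the numbers pair the fruits. With the replicate block there were 6825 positive and 4619 negative interactions, 9205 ripening genes in 1B and 5378 in RB1.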
